A study of Vitis vinifera and Vitis x champinii x Vitis riparia and Vitis cinerea var. helleri x Vitis rupestris with 22 samples.

Results

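Aluminium-activated malate transporter (ALMT) genes were followed in grapevine roots through the 3 ALMT1 homologs that the study listed as differing between 2 rootstocks. They were VvALMT1 (VIT_06s0080g00170, array identifier GSVIVT01036162001), VIT_06s0009g00450 (GSVIVT01037570001) and VIT_08s0105g00250 (GSVIVT01011148001), where the locus names place the first and second on chromosome 6 and the third on chromosome 8. They were 3 of the 26241 genes on the array, and their 6 probes, 2 per gene, were among 52478. The probe that the study listed is called the listed probe of a gene, and the other is called the second probe. Because the 3 genes were listed for the contrast of 140 Ruggeri with K51-40 under control conditions, on these same arrays, that contrast is given below as a description without a test. The control arrays of both rootstocks were thus used in the listing, so p values of their control contrasts with Cabernet Sauvignon draw in part on values that chose the genes. The salt arrays were not among those compared for the listing. They share normalization, batch correction and the estimate of spread with the control arrays.

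Roots came from hydroponically grown rooted leaves of Cabernet Sauvignon (Vitis vinifera) and of the rootstock hybrids K51-40 (V. champinii X V. riparia) and 140 Ruggeri (V. berlandieri X V. rupestris). Plants stayed in nutrient solution (control, 0 mM Cl- added) or received 50 mM Cl- as a mixture of sodium, calcium and magnesium salts for 4 days. Each of 22 one-colour arrays held RNA from the pooled roots of 4 plants, with 4 arrays per treatment in Cabernet Sauvignon and K51-40 and 3 per treatment in 140 Ruggeri. Each variety was 1 genotype multiplied from cuttings, and the probes had been designed on V. vinifera transcripts, so that between varieties a difference of transcript level and a difference of match to the probe cannot be told apart. In whole roots, a lower level in every cell and fewer cells with the transcript cannot be told apart either.

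ALMT proteins are membrane channels for malate and other anions. Root plasma membrane members release malate that binds toxic aluminium in acid soil, which gave the family its name. Other members, such as the maize and Arabidopsis ones studied for anion nutrition and vacuolar transport, are not switched on by aluminium and carry chloride or nitrate. In roots the family is therefore of interest for the efflux of anions to the soil and for their loading into the xylem, which carries Cl- to the shoot.

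The primers that the study designed for quantitative PCR of VvALMT1 are shown because they mark the transcript that its name refers to. They are printed from the 5′ to the 3′ end.
VvALMT1 forward primer: tgatagagtcttggacgatg
VvALMT1 reverse primer: cctggatatgggagtgag
The forward primer has 20 bases and the reverse primer 18. No probe, promoter or protein sequence of the 3 genes was analysed here, so the match of each probe to other ALMT genes was not tested.

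Median signal over background was between 4 and 14.8 per array, and between 72.5% and 82% of spots were well above background. No spot of the 6 probes was saturated or marked as an outlier. Each VvALMT1 probe was printed on 2 spots, which differed by a median of 0.1 (listed) or 0.14 (second) on the log2 scale. The SD within groups was between 0.18 and 0.38 for the listed and between 0.13 and 0.26 for the second probe. The probes of the other homologs were printed on 1 spot, so their spot noise was not measured. There were 2 scan dates. The second held 7 arrays, which made up 1 slide, and the first held the other 15. All 140 Ruggeri arrays belonged to the first date, and values were corrected for scan date before the fit. Both probes of the root markers TIP2;3 (a root aquaporin) and SCARECROW (an endodermis regulator) were well above background on 22 of 22 arrays. Of the leaf markers, both probes of LHCA3 and 1 of 2 probes of PSAF (photosystem I proteins) were also above background on all 22, and the part of any leaf RNA in the ALMT values was not tested. One library did not match its label: the scanner intensities of the array labelled Cabernet Sauvignon control replicate 3 correlated at 0.931 with their own deposited processed values and at 0.99 with those of a K51-40 array, whereas each of the other 21 arrays matched its own values best (r at least 0.994). Main differences of the ALMT1 homologs that include this array are mostly given with and without it. Those within the first scan date include it and were not recomputed without it.

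The 3 genes had 3 different patterns across varieties, and none of them passed the test for a response to salt. VIT_08s0105g00250 was lower in K51-40 than in Cabernet Sauvignon in both treatments, and lower in K51-40 than in 140 Ruggeri with salt. This last difference was not called on either probe without 140 Ruggeri salt replicate 3. VIT_06s0009g00450 was higher in 140 Ruggeri than in K51-40 with salt on both probes, and higher than in Cabernet Sauvignon in both treatments on its listed probe only. VvALMT1 was higher in K51-40 than in Cabernet Sauvignon on its listed probe. Its call in either treatment was lost when certain single arrays were left out, in control also without Cabernet Sauvignon control replicate 3. Values in the following are corrected log2 intensities, a difference is a difference of group means, and a probe was called at an adjusted p of at most 0.05 together with an absolute log2 difference of at least 0.5, which is 1.41-fold (limma, Benjamini-Hochberg over all 52478 probes).

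**Figure D1:**
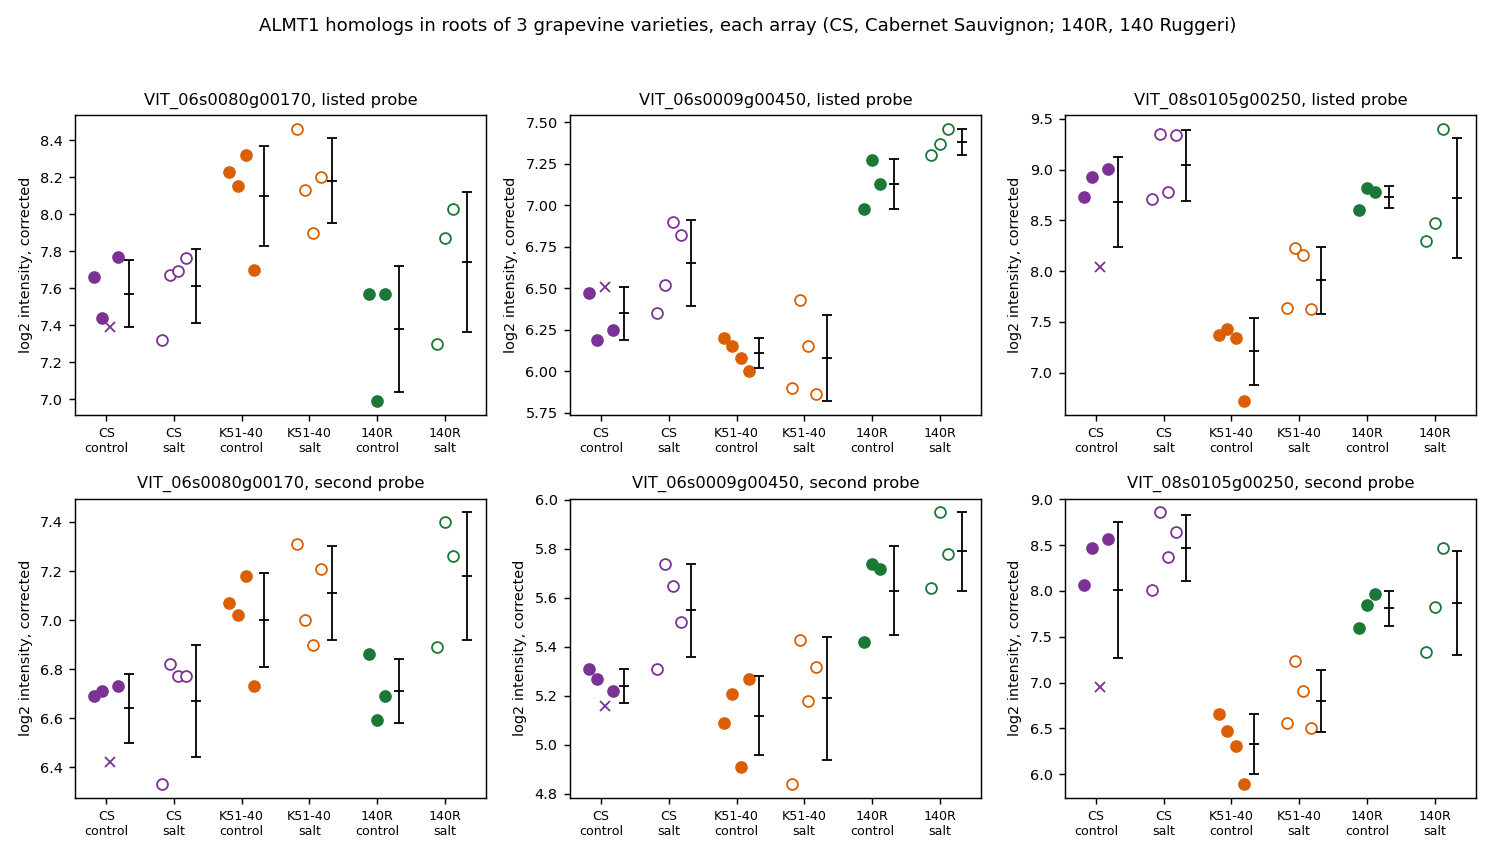
Corrected log2 intensity (vertical axis) of the listed (upper row) and second probe (lower row) of the 3 ALMT1 homologs on each array, by variety and treatment (horizontal axis). Filled points are control arrays, open points salt arrays, the cross is Cabernet Sauvignon control replicate 3, and bars beside the points give mean ± SD of 3 or 4 arrays. VIT_06s0009g00450 on its listed probe lies at 6.98 to 7.46 in 140 Ruggeri, above all corrected values of the other varieties, and VIT_08s0105g00250 on its listed probe lies at 6.72 to 8.23 in K51-40.

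VIT_08s0105g00250, for which the study's gene list names the Arabidopsis locus AT3G11680, showed the widest differences among the 3. On its listed probe the K51-40 control arrays read 7.37, 7.43, 7.34 and 6.72, and the K51-40 salt arrays 7.64, 8.23, 8.16 and 7.63. Cabernet Sauvignon gave 8.73, 8.93, 8.04 and 9.01 in control and 8.71, 9.35, 8.78 and 9.34 with salt. 140 Ruggeri gave 8.60, 8.82 and 8.78 in control and 8.30, 8.47 and 9.40 with salt. K51-40 was thus the low variety, and its control arrays overlapped with no array of any other group, its own salt group included. By group mean the order was Cabernet Sauvignon salt (9.04), 140 Ruggeri control (8.73), 140 Ruggeri salt (8.72), Cabernet Sauvignon control (8.68), K51-40 salt (7.91) and K51-40 control (7.21), and of these neighbours only the K51-40 groups did not overlap with each other. The Cabernet Sauvignon control mean without replicate 3 was 8.90, second in the order. Cabernet Sauvignon control overlapped with K51-40 salt (highest 8.23) only through replicate 3, at 8.04. The lowest array of 140 Ruggeri salt read 8.30, so without replicate 3 no array of the other varieties overlapped with K51-40 on this probe. On the second probe the K51-40 groups averaged 6.33 ± 0.33 in control and 6.80 ± 0.34 with salt (SD, n = 4), and the other 4 groups averaged between 7.81 and 8.47.

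K51-40 differed from Cabernet Sauvignon in VIT_08s0105g00250 by -1.46 in control (SE 0.25, 2.76-fold lower, adjusted p = 0.000255 with limma) and by -1.13 with salt (SE 0.25, 2.19-fold lower, adjusted p = 0.000941 with limma). The second probe gave -1.68 (adjusted p = 0.000354, limma) and -1.67 (adjusted p = 0.000158, limma), so both probes were called in both treatments. Without Cabernet Sauvignon control replicate 3, whose listed probe reading of 8.04 was the lowest of its group, the control differences were -1.65 and -1.98. The control contrast uses K51-40 arrays on which the gene was listed, and the salt contrast shares only normalization, batch correction and the estimate of spread with them. Within the first scan date the differences were -1.16 and -1.24 in control and -1.11 and -1.55 with salt, and none was called there (adjusted p between 0.0548 and 0.146, limma). The first-date fit includes Cabernet Sauvignon control replicate 3, and its control differences were not recomputed without that array. Within the second scan date the differences were -1.12 and -1.70 with salt, from 2 arrays of each variety, and both were called. In control the second date held 1 Cabernet Sauvignon array against 2 of K51-40, with differences of -1.82 and -2.17, and the spread of that single array is unknown.

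In the contrast of 140 Ruggeri with K51-40, for which the gene was listed, VIT_08s0105g00250 was 1.52 higher in 140 Ruggeri control roots on the listed probe (2.86-fold) and 1.47 higher on the second (2.78-fold). The salt arrays of the same varieties were not among those compared for the listing. On them the difference was 0.81 (SE 0.27, 1.75-fold, adjusted p = 0.0245, limma) on the listed probe and 1.08 (SE 0.327, 2.11-fold, adjusted p = 0.0142, limma) on the second, and the arrays of the 2 varieties did not overlap on either probe. The call rested on few arrays: without 140 Ruggeri salt replicate 3, the highest array at 9.40, the differences were 0.43 (adjusted p = 0.233, limma) and 0.74 (adjusted p = 0.123, limma). The listed probe also missed the threshold without K51-40 salt replicate 1 (0.69, adjusted p = 0.0799, limma) or replicate 4 (0.73, adjusted p = 0.0637, limma). When scan date entered the model instead of the correction, the listed probe gave 0.80 (adjusted p = 0.0555, limma). Within the first scan date, the only one with 140 Ruggeri arrays, the differences were 0.80 and 0.99 (adjusted p = 0.177 and 0.194, limma). 140 Ruggeri and Cabernet Sauvignon differed by 0.05 in control (95% confidence interval -0.51 to 0.62) and by -0.32 with salt (-0.89 to 0.24) on the listed probe, and neither was called. Without Cabernet Sauvignon control replicate 3 the control difference changed sign to -0.18 (adjusted p = 0.591, limma), and on the second probe it moved from -0.21 (adjusted p = 0.658, limma) to -0.58 (adjusted p = 0.0632, limma). On the second probe with salt the difference of -0.59 was not called (adjusted p = 0.161, limma), but -0.65 without Cabernet Sauvignon control replicate 3 was (adjusted p = 0.0283, limma). Without 140 Ruggeri salt replicate 3 this comparison was called on both probes (-0.70 and -0.92, adjusted p = 0.0415 and 0.0465, limma).

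VIT_06s0009g00450, for which the gene list names AT1G08440, was highest in 140 Ruggeri. Its listed probe read 6.98, 7.27 and 7.13 on the 140 Ruggeri control arrays and 7.30, 7.37 and 7.46 on the salt arrays. Cabernet Sauvignon gave 6.47, 6.19, 6.51 and 6.25 in control and 6.35, 6.52, 6.90 and 6.82 with salt. K51-40 gave 6.20, 6.15, 6.08 and 6.00 in control and 5.90, 6.43, 6.15 and 5.86 with salt. In these corrected values all 6 arrays of 140 Ruggeri were thus above all 16 of the other varieties. In the deposited processed values they were not. There Cabernet Sauvignon salt replicates 3 and 4, both of the second scan date, read 7.19 and 7.10, and 140 Ruggeri control read 6.79, 7.09 and 6.95. By group mean the order was 140 Ruggeri salt (7.38), 140 Ruggeri control (7.13), Cabernet Sauvignon salt (6.65), Cabernet Sauvignon control (6.35), K51-40 control (6.11) and K51-40 salt (6.08), with overlap between neighbours from the third group on. The second probe was dim. It was well above background on none of the 4 K51-40 control arrays, 1 of 4 K51-40 salt arrays, 1 of 4 Cabernet Sauvignon control arrays, 3 of 4 Cabernet Sauvignon salt arrays, 2 of 3 140 Ruggeri control arrays and all 3 salt arrays. Its group means ran from 5.12 to 5.79 in nearly the same order, with K51-40 control last.

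On the salt arrays, which were not compared for the listing, VIT_06s0009g00450 was 1.29 higher in 140 Ruggeri than in K51-40 (SE 0.14, 2.45-fold, adjusted p = 6.62e-07, limma). The second probe gave 0.60 (SE 0.134, 1.51-fold, adjusted p = 0.00155, limma), and on neither probe did the arrays overlap. As this probe was well above background on 1 of 4 K51-40 salt arrays, its fold is uncertain. It was 1.38-fold when the lowest signal well above background on each array stood for dimmer readings. That value is no lower bound, since normexp background correction gave a smaller difference. It is no upper bound either: over the alternative settings and single arrays left out, the difference on the second probe ran from 0.38 to 1.50. Within the first scan date both were called (1.22 and 0.67, adjusted p = 0.000819 and 0.0458, limma). The call of the second probe was lost without K51-40 salt replicate 1, where the difference was 0.46, and with the deposited processed values (0.48), without batch correction (0.49) or with normexp background correction (0.38). In control roots the listed probe was 1.02 higher in 140 Ruggeri than in K51-40 (2.03-fold). On the second probe, not well above background on any K51-40 control array, it was 1.38-fold higher by the same reckoning. The second probe stayed past the thresholds in 5 of 13 alternative settings. Its control difference was 0.32 with normexp and 0.37 with the deposited processed values, and the highest among the alternatives was 1.58.

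Against Cabernet Sauvignon, 140 Ruggeri was higher in VIT_06s0009g00450 on the listed probe by 0.77 in control (SE 0.14, 1.71-fold, adjusted p = 0.000215, limma) and by 0.73 with salt (SE 0.14, 1.66-fold, adjusted p = 0.000323, limma). Without Cabernet Sauvignon control replicate 3 the control difference was 0.83. The control contrast shares the 140 Ruggeri control arrays with the listing. The salt difference was 0.47 in the deposited processed values (adjusted p = 0.0528, limma). The second probe was below the fold threshold, with 0.39 in control (0.36 without Cabernet Sauvignon control replicate 3) and 0.24 with salt. It was called only in control without 140 Ruggeri control replicate 1 (0.50, adjusted p = 0.0118, limma). Other alternatives gave up to 0.82 in control and 0.66 with salt, and none of them was called. K51-40 and Cabernet Sauvignon differed by -0.25 in control (adjusted p = 0.143, limma; -0.20 without Cabernet Sauvignon control replicate 3) and by -0.56 with salt (1.48-fold lower in K51-40, adjusted p = 0.00132, limma). This last call was lost when any of 4 arrays was left out. Without Cabernet Sauvignon salt replicate 3 the difference was -0.46, and without Cabernet Sauvignon salt replicate 4, K51-40 salt replicate 1 or K51-40 salt replicate 4 it was -0.49 each time. It was -0.24 within the first scan date (adjusted p = 0.398, limma) and -0.80 within the second (adjusted p = 0.000956, limma).

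VvALMT1 ran the other way between the rootstocks, and its probes gave unlike sizes. The listed probe read 8.23, 8.15, 8.32 and 7.70 on the K51-40 control arrays and 8.46, 8.13, 7.90 and 8.20 on the salt arrays. Cabernet Sauvignon gave 7.66, 7.44, 7.39 and 7.77 in control and 7.32, 7.67, 7.69 and 7.76 with salt. 140 Ruggeri gave 7.57, 6.99 and 7.57 in control and 7.30, 7.87 and 8.03 with salt. K51-40 was the high variety on this probe, with 1 control array at 7.70 among the Cabernet Sauvignon values, and 140 Ruggeri spanned the widest range. By group mean the order was K51-40 salt (8.18), K51-40 control (8.10), 140 Ruggeri salt (7.74), Cabernet Sauvignon salt (7.61), Cabernet Sauvignon control (7.57) and 140 Ruggeri control (7.38), and every neighbour overlapped with the next. When Cabernet Sauvignon control replicate 3 was left out, the Cabernet Sauvignon groups, at 7.64 in control and 7.63 with salt, changed places. On the second probe 140 Ruggeri salt came first with 7.18 ± 0.26 (SD, n = 3), before K51-40 salt with 7.11 ± 0.19 and K51-40 control with 7.00 ± 0.19 (SD, n = 4).

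In the control contrast for which VvALMT1 was listed, 140 Ruggeri was 0.72 below K51-40 on the listed probe (1.65-fold) and 0.29 below on the second (1.22-fold), where the arrays overlapped. Without 140 Ruggeri control replicate 2, the lowest array at 6.99, the listed probe difference was -0.51. With salt the difference of the listed probe was -0.44 (95% confidence interval -0.84 to -0.04, adjusted p = 0.0814, limma) and was not called, but it was called without 140 Ruggeri salt replicate 3 (-0.60, adjusted p = 0.0358, limma) and in a fit to the arrays compared alone (-0.57, adjusted p = 0.0174, limma). The second probe gave 0.08 (95% confidence interval -0.23 to 0.39). The 2 probes thus gave unlike differences for the same gene and arrays.

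K51-40 was above Cabernet Sauvignon in VvALMT1 on the listed probe by 0.53 in control (SE 0.177, 1.45-fold, adjusted p = 0.022, limma) and by 0.56 with salt (SE 0.177, 1.48-fold, adjusted p = 0.0124, limma). The second probe gave 0.37 and 0.43, with adjusted p of 0.0385 and 0.0125 (limma) but below the fold threshold, and without Cabernet Sauvignon control replicate 3 the control value was 0.30 (adjusted p = 0.0779, limma). The control call was lost without Cabernet Sauvignon control replicate 3 (0.49), and also without Cabernet Sauvignon control replicate 2 (0.49), K51-40 control replicate 1 (0.48) or K51-40 control replicate 3 (0.46). It was also lost in the deposited processed values (0.38, adjusted p = 0.0793, limma). The salt call was lost without Cabernet Sauvignon salt replicate 1 (0.46) or K51-40 salt replicate 1 (0.47), whereas the second probe was called without K51-40 salt replicate 3 (0.50). Within scan dates the listed probe differed by 0.72 and 0.28 in control and by 0.84 and 0.35 with salt, first date before second. The first-date differences and the second-date salt difference were not called, and the second-date control value of 0.28 rests on 1 Cabernet Sauvignon array. The first-date control value of 0.72 includes Cabernet Sauvignon control replicate 3 and was not recomputed without it. Between 140 Ruggeri and Cabernet Sauvignon the listed probe differed by -0.19 in control (-0.25 without Cabernet Sauvignon control replicate 3) and 0.12 with salt, neither called, and the second by 0.08 in control (0 without that array). The second probe was 0.51 higher in 140 Ruggeri with salt (SE 0.147, 1.42-fold, adjusted p = 0.00845, limma), a call that was lost without Cabernet Sauvignon salt replicate 1 (0.36), 140 Ruggeri salt replicate 2 (0.39) or 140 Ruggeri salt replicate 3 (0.46).

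**Figure D2:**
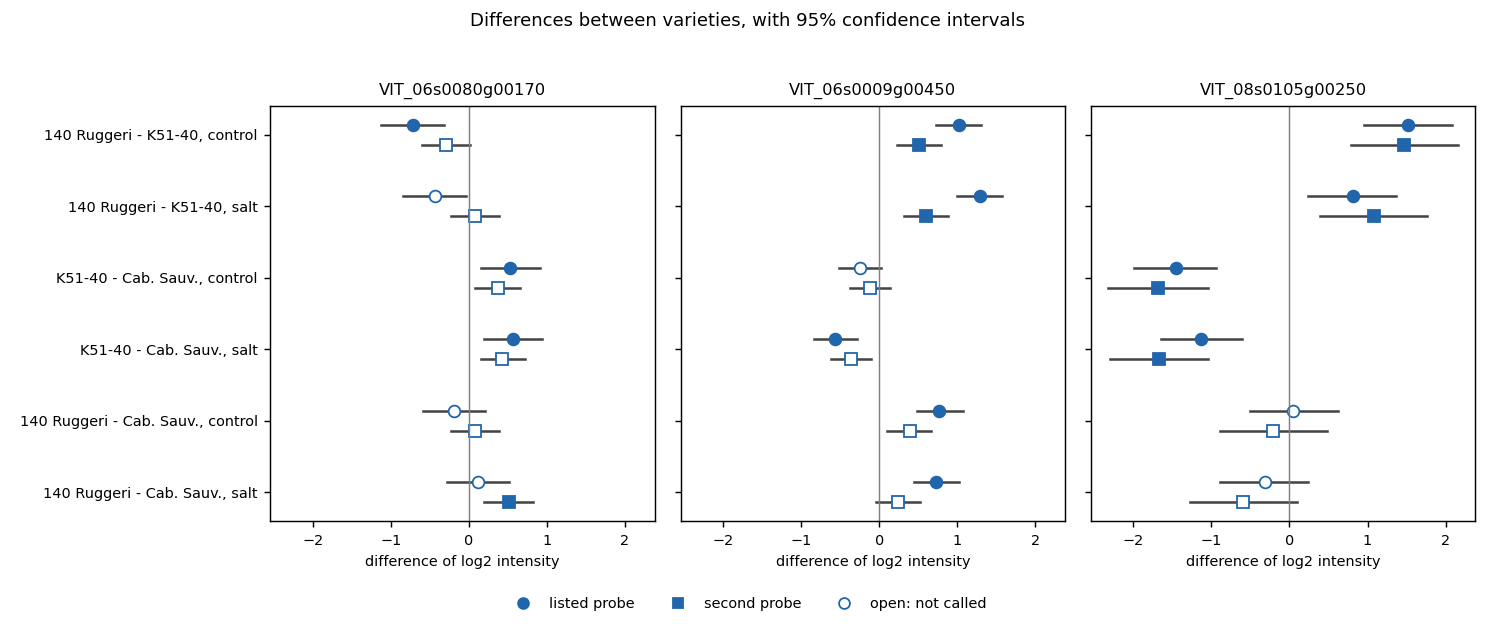
Difference of mean log2 intensity between 2 varieties (horizontal axis) with its 95% confidence interval, for each pair of varieties in control and salt roots (vertical axis) and for both probes of each ALMT1 homolog. Filled symbols were called and open symbols were not; the control contrast of 140 Ruggeri with K51-40 is a description. VIT_08s0105g00250 lies at -1.13 to -1.68 for K51-40 against Cabernet Sauvignon and at 0.81 to 1.52 for 140 Ruggeri against K51-40.

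The counts of called probes are read against the share of all probes called in the same comparison, since the varieties differed widely. Between 140 Ruggeri and K51-40 in control roots 5 of the 6 ALMT probes were past the thresholds, 4 higher and 1 lower in 140 Ruggeri, and 24.3% of all probes were; nothing is read from this count, because the genes were listed for it. With salt 4 of 6 were called between the same varieties, all higher in 140 Ruggeri, against 24.7% of all probes in either direction and 12.4% called higher. The genes were listed for differing between these varieties in control, which bears on the salt count as well, so nothing is read from it either. Between K51-40 and Cabernet Sauvignon 3 of 6 were called in control (24.7% of all probes), or 2 without Cabernet Sauvignon control replicate 3 (32.7%), and 4 of 6 with salt (32.3%). Between 140 Ruggeri and Cabernet Sauvignon 1 of 6 was called in control (27.1% of all probes, or 33.6% without that array) and 2 of 6 with salt (29.2%), or 3 without Cabernet Sauvignon control replicate 3 (31.6%). The medians of the 6 differences were 0.71 for 140 Ruggeri against K51-40 with salt and -0.18 and -0.46 for K51-40 against Cabernet Sauvignon in control and with salt. Over all probes these medians were -0.02, 0.03 and 0.04. Nothing is read from the median of 0.71, for the same reason. Arrays of the compared groups did not overlap for 5 of 6 ALMT probes between 140 Ruggeri and K51-40 in control (43.9% of all probes) and for 4 with salt (43.4%). Nothing is read from these counts, as the genes were listed for this pair of varieties. The count was 3 of 6 between K51-40 and Cabernet Sauvignon in control (20.2%) and 4 with salt (47.5%), and between 140 Ruggeri and Cabernet Sauvignon it was 2 in control (33.2%) and 2 with salt (48.9%). Both control comparisons with Cabernet Sauvignon include its control replicate 3. Their counts and shares of arrays not overlapping were not recomputed without it, so nothing is read from them.

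None of the 6 probes was called for a response to 4 days of 50 mM Cl- in any variety. The background was low as well, with 0.393% of all probes called in Cabernet Sauvignon, 1.03% in K51-40 and 0.0267% in 140 Ruggeri. These shares depended on Cabernet Sauvignon control replicate 3, without which they were 0.903%, 2.53% and 0.259%, and still none of the 6 probes was called. At an unadjusted p under 0.05 (limma), 2 of the 6 probes passed in Cabernet Sauvignon, 1 in K51-40 and 1 in 140 Ruggeri. No share of all probes under this unadjusted p stands beside these counts, so nothing is read from them. The salt minus control differences were between 0.04 and 0.46 in Cabernet Sauvignon (-0.04 to 0.33 without its control replicate 3), between -0.02 and 0.70 in K51-40 and between -0.01 and 0.47 in 140 Ruggeri. The 95% confidence intervals reached up to 1.22, for VIT_08s0105g00250 in K51-40.

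The widest salt response was that of VIT_08s0105g00250 in K51-40, 0.70 on the listed probe (SE 0.25, 1.62-fold, adjusted p = 0.234, limma) and 0.47 on the second (adjusted p = 0.663, limma). Cabernet Sauvignon control replicate 3 enters the shared estimate of spread. Without it the listed probe gave 0.69 (SE 0.213, adjusted p = 0.0758, limma) and the second 0.46 (adjusted p = 0.299, limma), neither called. On the listed probe the lowest salt array (7.63) was above the highest control array (7.43), as happened for 7.85% of all probes. The low K51-40 control array at 6.72 had no counterpart among the salt arrays. Within the scan dates the listed probe differed by 0.53 and 0.80. A fit to the K51-40 arrays alone gave 0.65 and called this probe (adjusted p = 0.0256, limma). In Cabernet Sauvignon the gene gave 0.37 on the listed and 0.46 on the second probe, and 0.17 and 0.14 without control replicate 3.

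In 140 Ruggeri the second probe of VvALMT1 read 6.86, 6.59 and 6.69 in control and 6.89, 7.40 and 7.26 with salt, a difference of 0.47 (SE 0.157, 1.39-fold, unadjusted p = 0.00705 and adjusted p = 0.445, limma). These arrays did not overlap, and neither did those of the listed probe of VIT_06s0009g00450 (0.25, adjusted p = 0.781, limma), which together are 2 of 6 probes against 14.6% of all probes. The listed probe of VvALMT1 gave 0.36 with overlapping arrays. In Cabernet Sauvignon VIT_06s0009g00450 had the smallest unadjusted p, with 0.29 on the listed (adjusted p = 0.411, limma) and 0.31 on the second probe (adjusted p = 0.361, limma), or 0.33 and 0.28 without control replicate 3. Averaged over the 3 varieties, all 6 differences were positive, between 0.16 and 0.35. None was called (0.604% of all probes were, and 0.726% without Cabernet Sauvignon control replicate 3), while 4 of 6 had an unadjusted p under 0.05 (limma). Nothing is read from that unadjusted count either, as no share of all probes stands beside it.

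The salt responses themselves were also compared between varieties. None of the 6 probes was called for K51-40 against Cabernet Sauvignon (0.118% of all probes called), K51-40 against 140 Ruggeri (0.0534%) or 140 Ruggeri against Cabernet Sauvignon (0.00762%). The shares without Cabernet Sauvignon control replicate 3 were 0.867%, 0.455% and 0.0172%, again with none of the 6 called. With replicate number as a block, the count over all probes for K51-40 against 140 Ruggeri fell from 28 to 0. At an unadjusted p under 0.05 (limma) the counts were 0, 0 and 1 of 6, the 1 being the second probe of VvALMT1 (0.43 larger in 140 Ruggeri than in Cabernet Sauvignon, adjusted p = 0.999). These unadjusted counts also lack a share of all probes. The difference of largest size was that of the listed probe of VIT_08s0105g00250, whose response was 0.71 larger in K51-40 than in 140 Ruggeri (95% confidence interval -0.09 to 1.51, adjusted p = 0.69, limma).

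**Figure D3:**
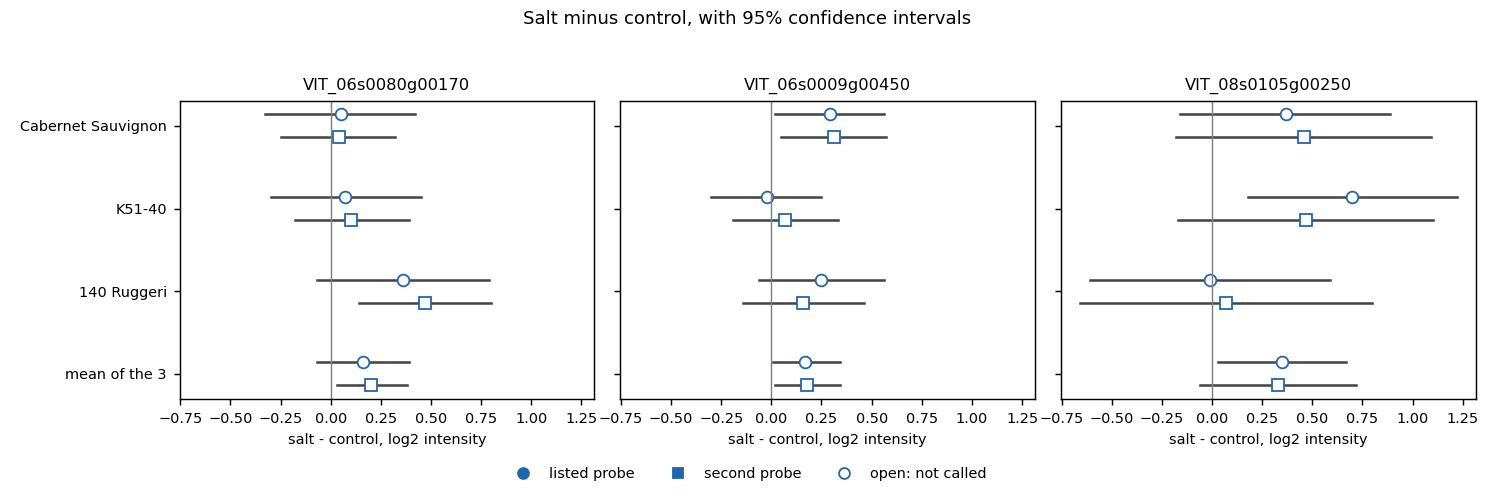
Salt minus control difference of mean log2 intensity (horizontal axis) with its 95% confidence interval, for each variety and for the mean of the 3 (vertical axis), on both probes of each ALMT1 homolog. No symbol is filled because no probe was called; the largest difference is 0.70 for the listed probe of VIT_08s0105g00250 in K51-40.

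The 2 probes of a gene can be set against each other across the arrays as a description, since variety differences and library are shared by the points. Over 22 arrays Pearson's r between the listed and the second probe was 0.97 for VIT_08s0105g00250, 0.85 for VIT_06s0009g00450 and 0.79 for VvALMT1. Without Cabernet Sauvignon control replicate 3 these were 0.97, 0.86 and 0.78. The gene with the best agreement was thus the one with the widest differences between varieties. Between the listed probes of different genes, r was 0.60 for VIT_08s0105g00250 with VIT_06s0009g00450, -0.47 for VIT_08s0105g00250 with VvALMT1 and -0.49 for VIT_06s0009g00450 with VvALMT1.

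**Figure D4:**
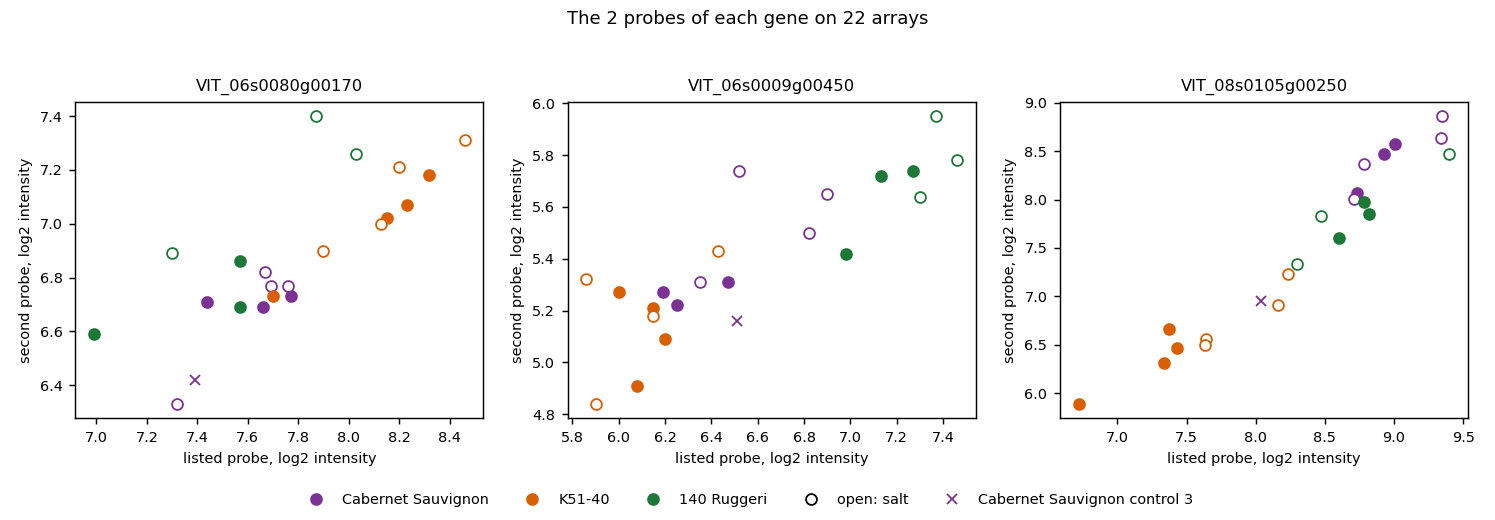
Second probe (vertical axis) against listed probe (horizontal axis) of each ALMT1 homolog, in corrected log2 intensity, 1 point per array (n = 22). Colours give the variety, open points are salt arrays and the cross is Cabernet Sauvignon control replicate 3. The points of VIT_08s0105g00250 follow a line (r = 0.97), while those of VvALMT1 scatter more (r = 0.79).

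The values that the authors deposited after their own normalization were compared with those computed here from the scanner intensities. For the listed probes r was 0.93 for VvALMT1, 0.94 for VIT_06s0009g00450 and 0.95 for VIT_08s0105g00250 over 22 arrays, and 0.99, 0.94 and 0.99 over the 21 without Cabernet Sauvignon control replicate 3. On that array VIT_08s0105g00250 read 8.04 from the scanner intensity and 8.97 in the processed table, and VvALMT1 read 7.39 and 7.99. The processed table thus placed the array with the other Cabernet Sauvignon arrays for VIT_08s0105g00250, and above them for VvALMT1. For VIT_06s0009g00450 the 140 Ruggeri means were lower in the processed table, 6.94 in control and 7.19 with salt against 7.13 and 7.38.

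**Figure D5:**
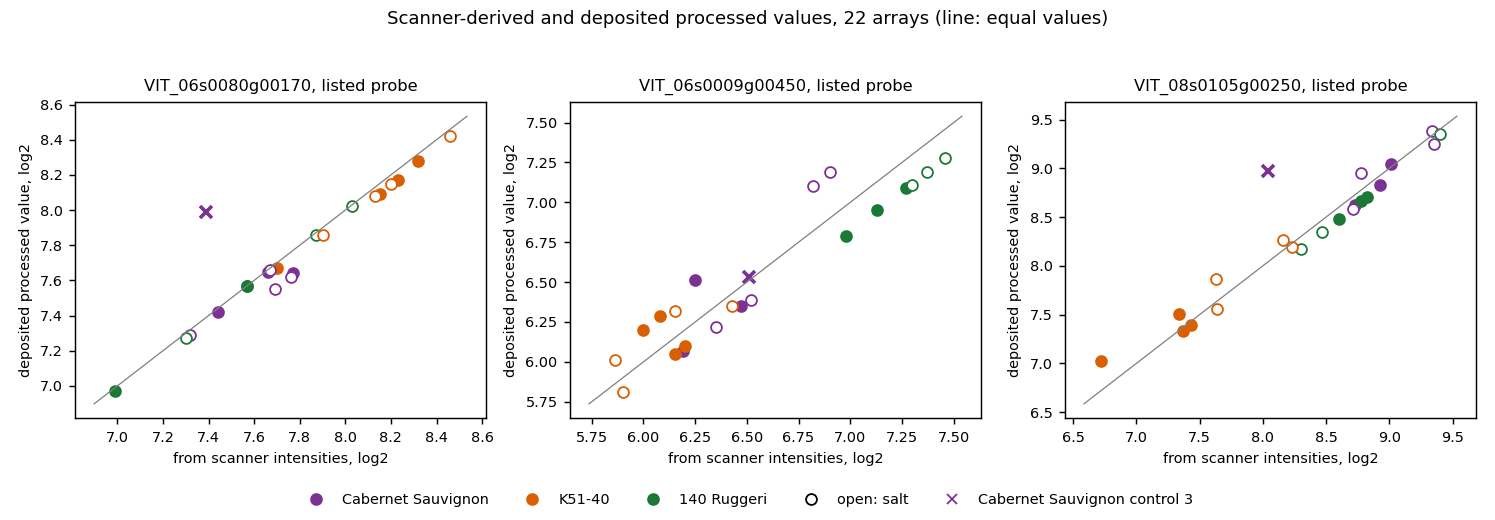
Deposited processed value (vertical axis) against the value computed from the scanner intensities (horizontal axis), both log2, for the listed probe of each ALMT1 homolog on 22 arrays, with the line of equal values. The cross, Cabernet Sauvignon control replicate 3, lies off the line for VvALMT1 (7.39 and 7.99) and VIT_08s0105g00250 (8.04 and 8.97).

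A further gene annotated as ALMT1 on the array, VIT_06s0009g00480 (GSVIVT01037569001), carries a locus name close to that of VIT_06s0009g00450 and the same Arabidopsis locus in the gene list. Its pattern was another one. On its first probe it was higher than in Cabernet Sauvignon control roots by 1.29 in 140 Ruggeri (SE 0.281, 2.45-fold, adjusted p = 0.00113, limma) and by 1.04 in K51-40 (SE 0.26, 2.05-fold, adjusted p = 0.00391, limma). Without Cabernet Sauvignon control replicate 3 these were 1.52 and 1.26. It differed by 0.26 between the rootstocks in control, where VIT_06s0009g00450 differed by 1.02. With salt it was 0.67 higher in 140 Ruggeri than in K51-40 on either probe, which was not called (adjusted p = 0.0715 and 0.0654, limma), but was called without Cabernet Sauvignon control replicate 3 (0.71 and 0.69, adjusted p = 0.0252 and 0.0335, limma). Its salt response in K51-40 was negative on both probes, -0.65 and -0.68 (adjusted p = 0.313 and 0.271, limma), and not called.

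Other genes for plant anion channels and carriers on the array were 8 of the CLC family, 5 of the SLAC and SLAH family and 1 cation chloride symporter. CLC proteins move chloride or nitrate across internal membranes, and SLAC and SLAH proteins are slow anion channels of the plasma membrane. None of these 14 genes was called for salt in Cabernet Sauvignon, K51-40 or 140 Ruggeri, as none of the ALMT1 homologs was, and 2, 2 and 0 of them had a probe at an unadjusted p under 0.05 (limma). The unadjusted counts have no share of all genes beside them, so nothing is read from them. Over all genes 0.583%, 1.51% and 0.0457% were called through at least 1 probe. Between 140 Ruggeri and K51-40 with salt 5 of the 14 were called, 3 higher and 2 lower, against 34.9% of all genes. Of the 3 ALMT1 homologs 2 were called, but they were listed for differing between these rootstocks in control. Their share is therefore not comparable with the other shares. Higher in 140 Ruggeri were CLC-F (VIT_19s0015g01850), by 1.62 and 1.83 on its probes, SLAH3 (VIT_16s0050g01860), by 0.85 on 1 probe, and the CLC gene VIT_11s0118g00220, by 0.75 on 1 probe. Lower were the CLC-c gene VIT_07s0130g00400 (-0.87) and the CLC gene VIT_14s0068g02190 (-0.60), each on 1 probe.

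For each ALMT1 homolog, the genes whose pattern over the 22 arrays was most like that of its listed probe were taken by Pearson's r among 34589 probes well above background on every array. For VIT_06s0009g00450 these were GSVIVT01035719001 (r = 0.94), GSVIVT01028486001 (0.93) and the glutathione S-transferase gene GSTU10 (GSVIVT01019987001, 0.93). For VIT_08s0105g00250 they were GSVIVT01012864001 (0.93), the cyclin gene GSVIVT01009353001 (0.92) and GSVIVT01008818001 (0.92). For VvALMT1 they were GSVIVT01021514001 (0.88), GSVIVT01029167001 (0.84) and GSVIVT01021516001 (0.83). The points share variety and scan date, and these r values describe the arrays only.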

How the data were processed

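Grapevine root RNA was hybridised to 22 one-colour custom Agilent arrays, grouped by variety and treatment as labelled. Replicates were separate pools of 4 plants. The authors deposited for each spot the median intensity from Agilent Feature Extraction 10.7.3 on a linear scale, without background subtraction or normalization, and a processed intensity after background subtraction and spatial detrending. Log2 values per spot, deposited by the authors after quantile normalization and ComBat, were matched to the spots by feature number and used as an alternative.

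Here log2 median intensities were quantile normalized over 22 arrays, corrected with an own implementation of parametric ComBat (scan date as batch, 6 groups protected, tolerance 1e-04; means only where a date held 1 array), averaged over the spots of a probe and fitted with limma 3.58.1 in R 4.3.3 (1 mean per group, data.table version 1.17.8, statmod 1.5.0 for random blocks). Benjamini-Hochberg adjustment ran over 52478 probes. The fit was tested on simulated data. A further fold for a dim probe used, per array of the dimmer group, the higher of its own value and the lowest signal well above background. It is no lower bound across the processing settings. The 3 genes, the gene lists and the tests were chosen with earlier results of these data known. Named genes were the 3 homologs, the other ALMT1-annotated gene, the called genes among 14 other anion genes, and for each listed probe the 3 genes of highest r.

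Replicate numbers were checked for pairing by the r, across probes, of residuals of same-numbered control and salt arrays. This r was 0.212 to 0.28 for the 4 pairs of K51-40, 0.239 to 0.343 for the 3 of 140 Ruggeri and -0.136 to 0.421 in Cabernet Sauvignon. No r of differently numbered arrays was set beside it, and some same-numbered arrays shared a slide. Whether numbers paired the arrays was thus not settled, and replicate blocks were fitted as alternatives. Alternatives were other batch corrections, scan dates taken singly, 75th percentile scaling of the processed intensity, normexp (offset 50), a background filter, the deposited log2 table, only the groups compared, outlier spots left out, replicate blocks, single arrays left out and an absolute log2 difference of at least 1.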

Additional observations from a re-analysis of the deposited data

Results flagged for a closer look

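Of 32 groups of 4 arrays tested for 1 array lying apart (8 probes of the 3 ALMT1 homologs and VIT_06s0009g00480), 4 exceeded Dixon's 95% critical value, and chance alone flags about 5% of groups. The second probe of VvALMT1 (VIT_06s0080g00170) was low on Cabernet Sauvignon control replicate 3, at 6.42 against 6.69 to 6.73 on the other 3 arrays (gap over range 0.868). It was also low on Cabernet Sauvignon salt replicate 1, at 6.33 against 6.77 to 6.82 (0.888). The listed probe of VIT_08s0105g00250 was low on K51-40 control replicate 4, at 6.72 against 7.34 to 7.43 (0.883). The first probe of VIT_06s0009g00480 was high on K51-40 control replicate 2, at 8.28 against 7.21 to 7.32 (0.897).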

How the results depend on the processing

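No difference that was called for an ALMT probe under the main setting or under an alternative changed sign between them. Of 1920 recomputed differences of single probes, 1840 kept their side of the thresholds, 69 lost a call and 11 gained one. Counts of called probes (of 6) moved by more than 1.5 times as follows. With an absolute log2 difference of at least 1, the count was 3 for 140 Ruggeri against K51-40 in control and 2 with salt, 0 for 140 Ruggeri against Cabernet Sauvignon in control and 0 with salt, and 2 for K51-40 against Cabernet Sauvignon with salt. The first scan date alone had fewer arrays, with Cabernet Sauvignon control replicate 3 among them. There 140 Ruggeri against K51-40 had 2 in control and 2 with salt, 140 Ruggeri against Cabernet Sauvignon had 1 with salt, and K51-40 against Cabernet Sauvignon had 0 in control and 0 with salt. For 140 Ruggeri against Cabernet Sauvignon with salt the count was 1 without batch correction, with slide as a random block, with normexp and with the deposited processed values, and for K51-40 against Cabernet Sauvignon with salt it was 2 with normexp. The fit to the K51-40 arrays alone called 1 probe for salt in K51-40, and ComBat by slide called 1 in 140 Ruggeri (second probe of VvALMT1, 0.56, adjusted p = 0.0425, limma). The causes were not tested.

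With each array left out in turn, the counts were 3 to 5 and 2 to 4 for 140 Ruggeri against K51-40 in control and with salt, 1 to 2 and 1 to 3 for 140 Ruggeri against Cabernet Sauvignon, and 2 to 3 and 2 to 5 for K51-40 against Cabernet Sauvignon. They were 0 to 0 for every salt response and difference of responses. The replicate block changed no call of an ALMT probe, with 0 called for each salt response, whether fitted over all arrays or within each variety, and 5, 1, 3, 4, 2 and 4 called between varieties as in the main setting. Over all probes the block within varieties moved the count of salt calls in 140 Ruggeri from 14 to 3, and either block moved the count for the difference of response between K51-40 and 140 Ruggeri from 28 to 0. Scaling to the 75th percentile shifted the median of all probes to -0.16 for 140 Ruggeri against K51-40 with salt and to 0.20 for K51-40 against Cabernet Sauvignon with salt, where 61.9% rather than 50.6% of all calls were then higher in K51-40. Precision was limited by 3 or 4 arrays per group and, for the second probe of VIT_06s0009g00450, by a signal near background.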
